A study of Homo sapiens with 10 samples.

Results

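H3K4me3 regions with no H3K27ac and no MYC or MYCN peak were described in RPMI-8402, an established human cell line of T-cell acute lymphoblastic leukaemia. They are called bare regions below. They were the regions of the H3K4me3 list, on chromosomes 1 to 22 and X, that shared no base with the H3K27ac list of set C, the MYC lists of sets C and D or the MYCN list of set A. The rule found 2164 of 13852 H3K4me3 regions, 15.6% (95% exact interval 15.0 to 16.2%). The bare regions were chosen by the peak positions in these 4 lists, so the absence of those peaks is the definition and not a result.

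The series holds 10 CUT&RUN libraries of this 1 line, with no treatment named in the labels, in 4 sets that each have a control IgG library. The antibodies against MYC and MYCN came from CST, that against H3K4me3 from Epicypher, and those against the other histone marks, H3K27ac and H3K4me1, from Abcam. In CUT&RUN each antibody draws a nuclease to its target in intact nuclei, and the DNA cut free there is sequenced. Lists of 6 libraries were used, each from 1 library, and the IgG libraries were not analysed here. MYC alone had more than 1 list, and the headers of its lists point to a single signal track, so the lists may not be independent. The lists give positions on hg19 and no score or read count, so the depth of every library is unknown. With 1 library for each histone mark there is no spread between samples and no test over samples. The intervals given are exact Clopper-Pearson intervals that cover counting error over regions, and neighbouring regions are not independent.

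H3K4me3 is laid down around transcription start sites, most strongly at promoters rich in CpG. At active promoters it is usually joined by H3K27ac, which is written by the acetyltransferases p300 and CBP. MYC and MYCN bind with their partner MAX, mainly at promoters that are already open. H3K4me1 marks enhancers and the outer flanks of promoters, where H3K4me3 gives way to it. A promoter with H3K4me3 but no acetylation can be weakly used, or poised, and in the strict sense poised promoters also carry the Polycomb mark H3K27me3. H3K27me3 was not analysed here, so H3K4me1 beside a bare region is given only as a pattern that poised chromatin could show. Gene positions on hg19 were not analysed here. The word promoter in the working name of these regions was therefore not checked against gene starts, nor the cell type against its marker genes, and regions are given by position.

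Of the 4676 H3K4me3 regions without H3K27ac, 46.3% (44.8 to 47.7%) were bare. Of the rest, 987 met MYC in both lists, 1228 met MYC of set D alone, 296 met MYC of set C alone, and 1 met MYCN without MYC. The set D list therefore did most of the sorting. With MYC of set C alone the rule gave 3367 regions, and with MYC of set D alone 2460. In 79 bare regions the nearest H3K27ac, MYC or MYCN peak began 1 to 50 bp from the edge, and their median width was 276 bp. In 73 regions just outside the rule the largest overlap with such a peak was 1 to 50 bp, and their median width was 294 bp. H3K4me1 lay within 2 kb of 36.7% of the former and 31.5% of the latter.

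Bare regions were narrow. Their median width was 379 bp, with quartiles of 234 and 810.5 bp and a range from 180 to 6434 bp. H3K4me3 regions with MYC or MYCN and no H3K27ac had a median of 1072 bp, those with H3K27ac and neither factor 903.5 bp, and those with both 1682 bp. The narrowest width in the list was 180 bp, and 201 bare regions (9.29%) had exactly that width, against 2.58% of all H3K4me3 regions. In all 344 bare regions were 200 bp wide or less, and 393 (18.2%) were wider than 1 kb. They made up 15.6% of H3K4me3 regions by number and covered 1302 kb, or 6.60% of the bases. The share of bare regions fell with every step in width: 48.6% (46.2 to 51.0%) of H3K4me3 regions under 300 bp, 21.7% (20.0 to 23.5%) of those from 500 bp to under 1000 bp, and 1.38% (1.02 to 1.84%) of those of 2000 bp or more. A narrow region meets another peak less easily, so this gradient is partly built into the rule, and how large that part is was not tested.

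**Figure D1:**
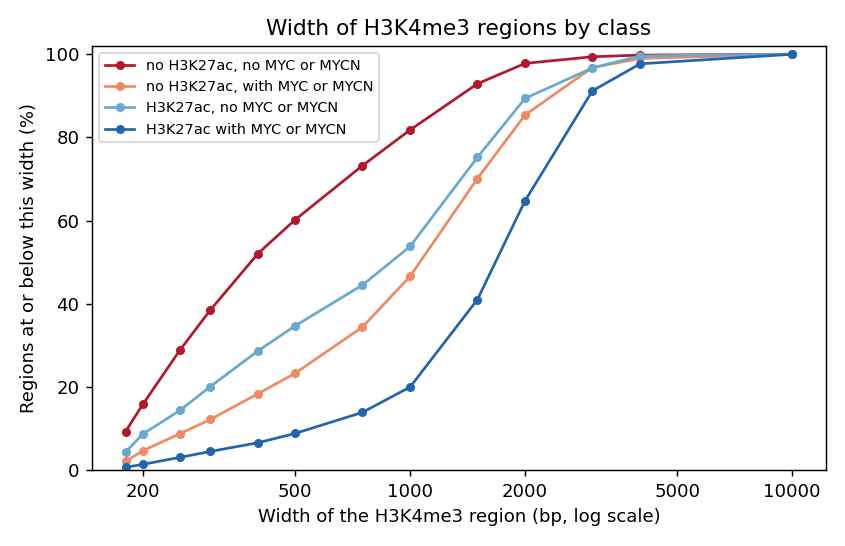
Cumulative share (%) of H3K4me3 regions at or below each width (bp, log scale) in the 4 classes set by H3K27ac and by MYC or MYCN. The bare regions lie to the left of the other classes, with a median of 379 bp against 903.5 to 1682 bp.

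More than any other class, bare regions stood beside another H3K4me3 region. Another region of the same list lay within 2 kb of 1250 of them, 57.8% (55.6 to 59.9%), while 28.4% of all H3K4me3 regions had such a neighbour. The share was 34.8% (32.9 to 36.7%) with a factor and no H3K27ac, 30.5% (27.7 to 33.3%) with H3K27ac and no factor, and 18.4% (17.5 to 19.2%) with both. Weighted to the widths of the bare regions, the same shares were 45.0%, 36.3% and 33.4% in the same order. Between a bare region and its neighbour the median gap was 224 bp, and 799 of the 1250 gaps were under 300 bp. The smallest gap was 118 bp, in this class and in the whole list.

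The neighbour was usually the larger of the pair. It was wider than the bare region in 947 of 1250 cases (75.8%), and its median width was 1164.5 bp. For 537 bare regions (43.0%, 40.2 to 45.8%) the nearest neighbour carried H3K27ac with MYC or MYCN, and these neighbours had a median width of 2128 bp. That class makes up 58.6% of all H3K4me3 regions. A further 96 stood beside a region with H3K27ac and no factor, 228 beside one with a factor and no H3K27ac, and 389 (31.1%, 28.6 to 33.8%) beside another bare region, a class that makes up 15.6% of the list. The whole list is not a matched baseline for these shares, because only a region with another within 2 kb can be such a neighbour. Of the 3937 H3K4me3 regions with one, 1250 were bare and 1492 doubly marked. Whether bare regions stood beside either class more often than these counts would give was not tested.

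Joining H3K4me3 regions within 1 kb of each other into domains gave 11979 domains. Of the 2164 bare regions, 1018 (47.0%) were a domain of their own, 299 (13.8%) shared one of 139 domains made of bare regions alone, and 847 (39.1%) lay in 774 mixed domains. Of these 847, 644 (76.0%) were in a domain that also held an acetylated region. Another H3K4me3 region lay within 1 kb of 53.0% of bare regions and 25.2% of all H3K4me3 regions, so bare regions were less often a domain of their own. The other domain shares were counted for bare regions alone and have no such baseline. Mixed domains had a median span of 2604.5 bp, the 139 domains of several bare regions 1346 bp, and domains of bare regions alone, of 1 region or several, 692 bp. There were 914 bare regions (42.2%) with no other H3K4me3 region within 2 kb.

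**Figure D2:**
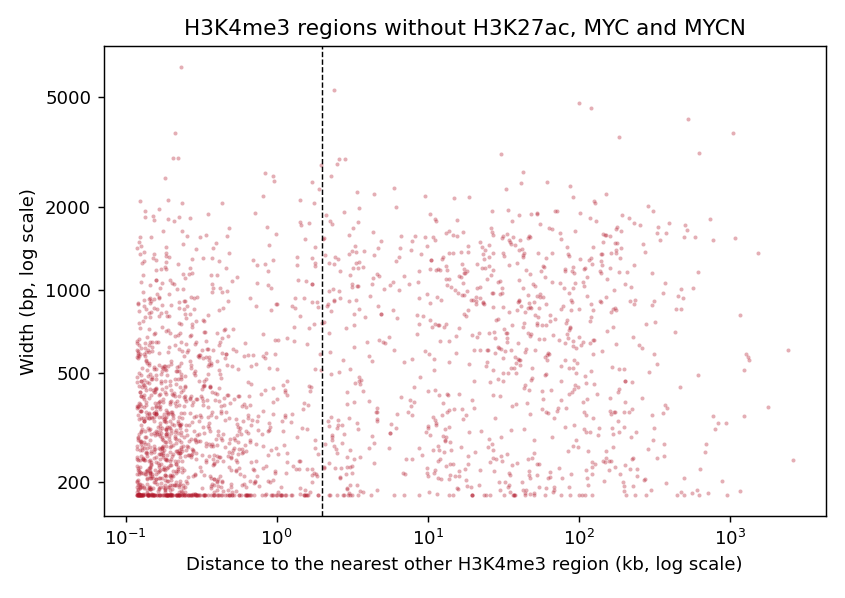
Each point is 1 of the 2164 bare regions, by its distance to the nearest other H3K4me3 region (kb, log scale) and its width (bp, log scale). The dashed line marks 2 kb, and the 1250 regions to its left are narrower (median 310.5 bp) than the 914 to its right (616.5 bp).

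The regions that stood alone differed from those with a neighbour in several measures. Their median width was 616.5 bp, against 310.5 bp, and 276 of 914 (30.2%) were wider than 1 kb, against 117 of 1250 (9.36%). The nearest H3K27ac, MYC or MYCN peak was a median of 7038.5 bp away, against 1045.5 bp. H3K4me1 lay within 2 kb of 30.6% (27.7 to 33.7%) of the lone regions and 23.2% (20.9 to 25.6%) of those with a neighbour. Of all H3K4me3 regions, 31.0% had it. This split was made in bare regions alone, so the differences are not shown to be particular to them.

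The lists that the rule bars from the regions were still met nearby. The nearest H3K27ac region was a median of 3467 bp away, with quartiles of 1169 and 16684 bp. H3K27ac lay within 1 kb of 469 bare regions (21.7%), within 2 kb of 814 (37.6%) and within 10 kb of 1434 (66.3%). In the other class without H3K27ac these shares were 17.8%, 26.2% and 54.6%, with a median distance of 7783 bp. MYC of set D was a median of 4768.5 bp away and lay within 2 kb of 740 (34.2%). MYC of set C was a median of 27103 bp away and lay within 2 kb of 471 (21.8%). In the class with H3K27ac and no factor these 2 kb shares were 18.5% and 9.20%. Of all H3K4me3 regions, which include those that overlap these lists, 76.9% had H3K27ac within 2 kb, 81.1% MYC of set D and 52.5% MYC of set C. MYCN, with a list of 895 peaks, was a median of 762382 bp away and lay within 2 kb of 36 bare regions (1.66%), against 599280 bp and 5.85% for all H3K4me3 regions, which include those that overlap it. Counting the nearest peak of any of these lists, 1112 (51.4%) had one within 2 kb, and 177 (8.18%) had none within 50 kb.

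Distance from these peaks went with width and with H3K4me3 neighbours. Bare regions within 2 kb of an H3K27ac, MYC or MYCN peak had a median width of 307 bp, and 81.5% of them had another H3K4me3 region within 2 kb. At 2 to 10 kb the median was 495.5 bp and the share 40.9%, and at 10 to 50 kb they were 590 bp and 25.8%. The 177 beyond 50 kb had a median width of 551 bp, and 39 of them had an H3K4me3 neighbour within 2 kb. These distances use the lists that define the class and are given as a description.

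H3K4me1 is the only list that the rule did not use. It is still not independent of the rule, because H3K27ac, which the rule bars, overlapped 50.4% of all H3K4me1 regions. How far this lowers the shares of bare regions was not tested. H3K4me1 overlapped 159 bare regions, 7.35% (6.28 to 8.53%), where 14.4% of all H3K4me3 regions met it. The share was 10.9% (9.71 to 12.2%) with a factor and no H3K27ac, 19.8% (17.5 to 22.4%) with H3K27ac and no factor, and 16.7% (15.9 to 17.5%) with both. Within 2 kb H3K4me1 was found at 570 bare regions, 26.3% (24.5 to 28.3%), against 31.0% of all H3K4me3 regions, and 31.8%, 39.9% and 30.8% of the other classes in the same order. H3K4me1 was thus met at fewer bare regions than at any other class, by overlap and within 2 kb. Within 5 kb the share was 39.5%, against 41.0% of all H3K4me3 regions and 38.9% of those with H3K27ac and a factor, and the intervals of the first and the last overlapped.

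Width changes how these shares compare. Weighted to the widths of the bare regions, the overlap shares were 12.4% with a factor and no H3K27ac, 24.0% with H3K27ac and no factor and 27.7% with both, against 7.35% measured in bare regions. The shares within 2 kb became 34.2%, 46.9% and 49.6%, against 26.3%. Among regions of 180 bp to under 300 bp, H3K4me1 overlapped 6.39% (4.82 to 8.27%) of bare regions and 34.2% (29.3 to 39.3%) of those with H3K27ac and a factor. Regions of that width with a factor and no H3K27ac gave 12.5% (8.97 to 16.7%). The gap closed with width. From 1500 bp to under 2000 bp the overlap shares were 12.1% (6.63 to 19.9%) of 107 bare regions and 16.3% (14.6 to 18.0%) of the doubly marked class. At 2000 bp or more they were 6.38% (1.34 to 17.5%) of 47 bare regions and 9.34% (8.30 to 10.5%).

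The order was not the same for wide regions in the 2 kb window. Of the 215 bare regions at or above the median width of the H3K4me3 list, 34.4% (28.1 to 41.2%) had H3K4me1 within 2 kb, compared with 25.7% (24.7 to 26.8%) of 6713 other H3K4me3 regions of such width. By overlap the same groups gave 11.2% (7.28 to 16.2%) and 12.4% (11.6 to 13.2%), which their intervals do not separate. Of the 215, 156 (72.6%) had no H3K4me3 neighbour within 2 kb, a lower share than the 84.5% of the other wide regions. H3K27ac lay within 2 kb of 57 (26.5%), against 88.9% of the others, most of which overlap it. The higher share of wide bare regions within 2 kb was not seen in every bin or against every class. From 1000 bp to under 1500 bp bare regions gave 29.3%, against 30.6%, 34.1% and 31.5% of the other classes. From 1500 bp to under 2000 bp they gave 34.6% (25.6 to 44.4%), the highest of the 4, against 29.0%, 23.5% and 27.2%. At 2000 bp or more they gave 25.5% (13.9 to 40.3%) of 47, against 28.8% with a factor alone and 33.0% with H3K27ac alone, and the doubly marked class was lower, with 631 of 2868.

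**Figure D3:**
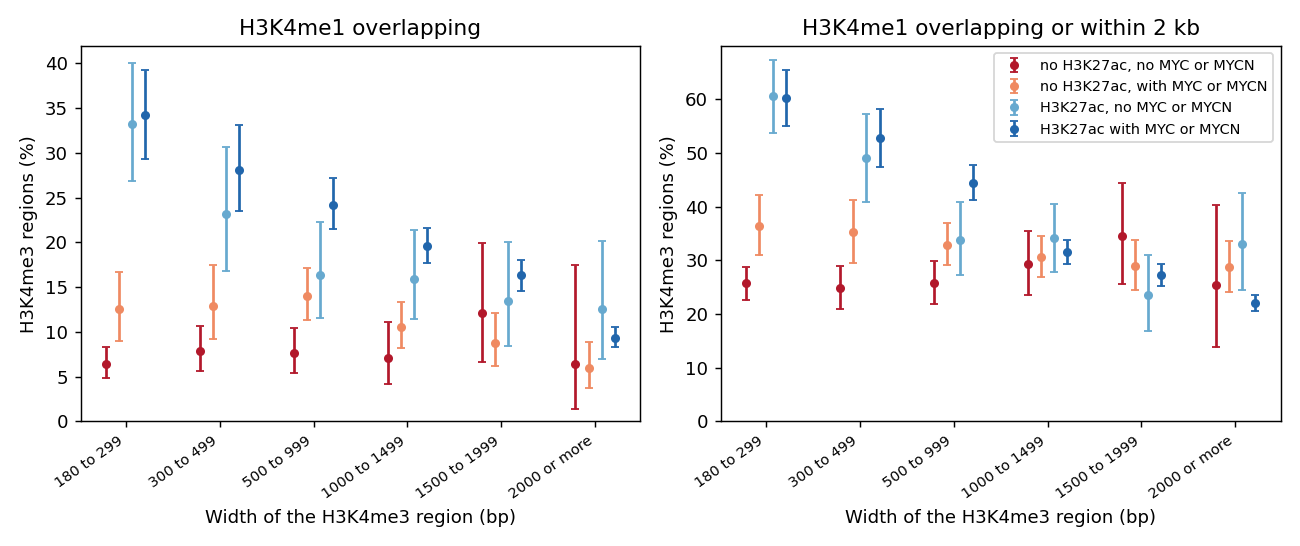
Share (%) of H3K4me3 regions that overlap H3K4me1 (left) or have it within 2 kb (right), by width of the H3K4me3 region (bp) and class, with exact 95% intervals. The bare regions lie lowest in every bin under 1500 bp. From 300 bp on, their intervals overlap those of some other class in at least 1 panel of every bin. The classes lie closer together at larger widths.

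H3K4me1 that did not overlap lay mostly to 1 side. Of the 2164 bare regions, 391 (18.1%, 16.5 to 19.8%) had H3K4me1 within 2 kb on 1 side without overlap, against 15.6% of all H3K4me3 regions. The share was 19.5% (18.0 to 21.2%) with a factor and no H3K27ac, 18.4% (16.1 to 20.9%) with H3K27ac and no factor, and 13.3% with both. In this arrangement only the doubly marked class was lower than the bare regions, whose interval overlapped those of the other classes. A further 20 (0.924%, 0.565 to 1.42%) had it on both sides. H3K4me1 on both flanks of an H3K4me3 region was rare throughout, at 0.975% of all H3K4me3 regions. In the 159 overlaps the shared stretch had a median of 177 bp, or 38.3% of the width of the bare region. The centre of the region lay inside H3K4me1 in 72 of them, and 14 were wholly inside.

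The H3K4me1 regions near bare regions numbered 644, with a median width of 298 bp, against 324 bp for all 39503 in the list. H3K27ac overlapped 26.9% (23.5 to 30.5%) of the 644, where it overlapped 50.4% of all H3K4me1 regions. MYC overlapped 14.1% (11.5 to 17.1%), against 15.9% of all H3K4me1 regions. Of the H3K4me1 regions near any H3K4me3 region, MYC overlapped 39.7% and H3K27ac 47.1%, so both shares were lower beside bare regions. The MYC share was 42.1% near the class with a factor and no H3K27ac and 49.2% near that with both. Near the class with H3K27ac and no factor it was 5.81% (3.96 to 8.20%), lower than beside bare regions. H3K4me1 regions near H3K4me3 with a factor and no acetylation carried H3K27ac in 24.6% of cases (21.8 to 27.5%), and those near the acetylated classes in 60.5% and 55.5%. Acetylation of the nearby H3K4me1 thus went with acetylation of the H3K4me3 region. The rule bars H3K27ac and MYC from the region itself, which lowers the chance of meeting them close by, so these shares are not independent of the rule.

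Coverage around the edges showed the same layout. H3K4me1 covered 2.18% of the bases inside bare regions, 2.76% of the first 250 bp outside their edges and 1.66% of the bases 4750 to 5000 bp out. The other class without H3K27ac had a similarly shallow profile, with 1.94% inside, 3.44% in the first 250 bp and 1.64% at the end. In regions with H3K27ac and no factor it fell from 7.86% to 1.28% over that range, and in those with both from 3.88% to 1.08%. H3K27ac rose away from the edge of bare regions, from 1.49% in the first 250 bp to a highest value of 6.91% at 1750 to 2000 bp, and 2.84% at the end of the window. Around regions with a factor and no H3K27ac it rose as well, from 1.66% to a highest value of 5.14% at 500 to 750 bp. Other H3K4me3 regions covered 5.48% of the first 250 bp and 20.2% of the bases 500 to 750 bp out. MYC of set D rose from 1.69% in the first 250 bp to 4.43% at 500 to 750 bp. It then stayed nearly level, with a highest value of 4.53% at 1750 to 2000 bp. The rule itself keeps H3K27ac and MYC off the regions, which lowers both near the edge.

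**Figure D4:**
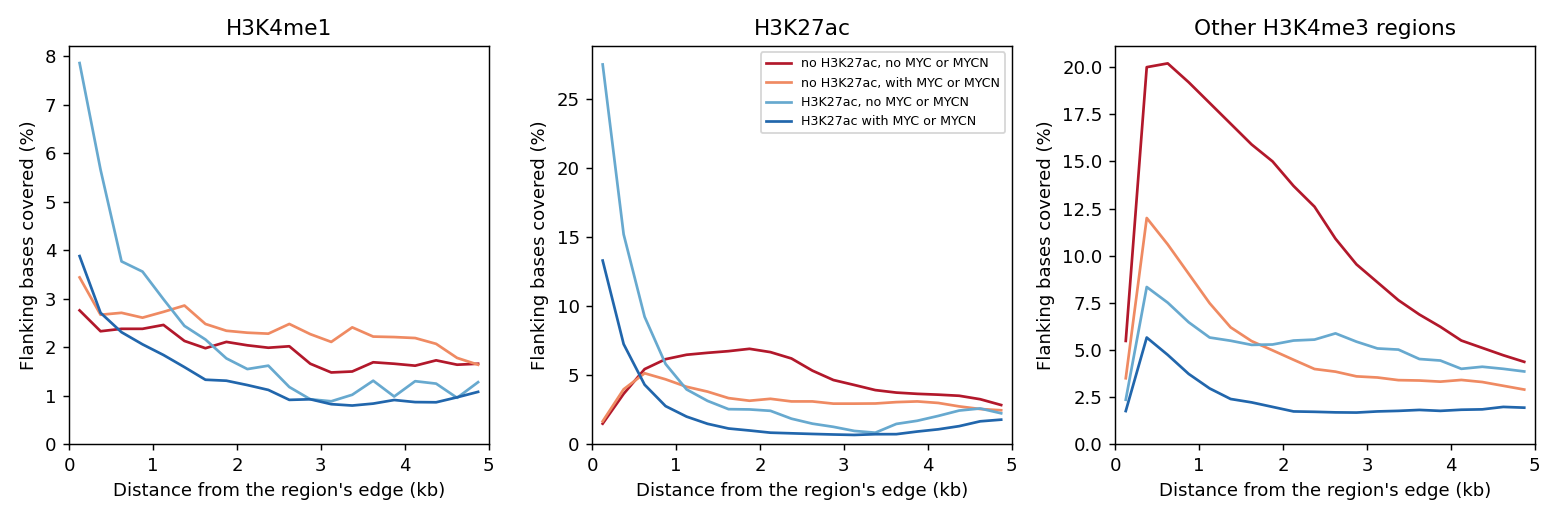
Share (%) of flanking bases covered by H3K4me1, H3K27ac and other H3K4me3 regions, in steps of 250 bp to 5 kb from both edges of the H3K4me3 regions of each class. Around both classes without H3K27ac the H3K4me1 profile is shallow. Around bare regions H3K27ac is highest near 2 kb (6.91%) and other H3K4me3 regions cover up to 20.2% of bases.

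The count of bare regions that poised chromatin could describe depended on what else was allowed nearby. H3K4me1 lay at or within 2 kb of 570. Of these, 275 also had H3K27ac within 2 kb, and 295 (13.6% of bare regions, 12.2 to 15.2%) had none. With MYC and MYCN also kept out to 2 kb, 210 (9.70%, 8.49 to 11.0%) remained, and 161 of those (7.44%, 6.37 to 8.63%) had no other H3K4me3 region in that range either. The median width rose along this series, from 389.5 bp for the 570 to 467, 601 and 688 bp. H3K4me1 within 2 kb was found at 33.8% (30.5 to 37.1%) of bare regions with H3K27ac in that range and 21.9% (19.7 to 24.2%) of those without. In that window H3K4me1 thus went with nearby acetylation. By overlap it did not, with 6.51% (4.91 to 8.43%) and 7.85% (6.47 to 9.42%), whose intervals overlap. At the other extreme, 513 bare regions (23.7%, 21.9 to 25.6%) had no H3K4me1, H3K27ac, MYC or MYCN within 5 kb, and their median width was 598 bp. The counts of 295, 210, 161 and 513 were made in bare regions alone, so they are not shown to be particular to this class. Beyond 50 kb from any H3K27ac, MYC or MYCN peak, 12 of 177 regions (6.78%, 3.55 to 11.5%) had H3K4me1 within 2 kb.

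The widest bare region was on chromosome 5, chr5:133448827-133455260, and was 6434 bp wide. A second bare region of 296 bp lay 232 bp from it, its nearest H3K27ac region was 11631 bp away and its nearest H3K4me1 region 5378 bp. Next came chr10:121920655-121925965 (5311 bp), with H3K27ac 5184 bp away, and chr12:11904967-11909725 (4759 bp), the only one of the 10 widest with H3K4me1 within 2 kb, at 1596 bp. The fourth was chr13:49227399-49231987 (4589 bp). The fifth, chr2:16614797-16618955 (4159 bp), lay 252 bp from H3K27ac and 350 bp from MYC of set C, and was the only one of the 10 with either within 2 kb.

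The other five of the 10 widest all lay over 5 kb from H3K27ac. They were chrX:39954606-39958326 (3721 bp), chr9:8854715-8858431 (3717 bp), chr18:29262652-29266231 (3580 bp), chr2:235402567-235405701 (3135 bp) and chrX:12155839-12158954 (3116 bp). Their nearest H3K27ac regions were 6014 to 9750 bp away. The region on chromosome 9 was 1054467 bp from its nearest H3K4me3 neighbour. None of the 10 overlapped H3K4me1, 9 had no H3K27ac within 5 kb and 2 had another H3K4me3 region within 2 kb.

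The 10 bare regions with the widest overlapping H3K4me1 were between 180 and 1265 bp wide. The widest H3K4me1 region that met one was chr16:769916-772128 (2213 bp), and it held all 210 bp of the bare region chr16:770682-770891, which lay 16830 bp from H3K27ac. Next was chr11:64017249-64018654 (1406 bp), which covered 12.6% of chr11:64018495-64019759. The third, chr1:155034851-155036099 (1249 bp), covered 26.2% of chr1:155035790-155036972. On chromosome 19 the H3K4me1 region chr19:18284382-18285439 (1058 bp) held the whole of chr19:18284801-18285188 (388 bp), which lay 231 bp from H3K27ac. Of these 10 bare regions, 3 were wholly inside it, 4 had H3K27ac within 2 kb, and 4 were on chromosome 19. At one of the 10, chr16:127596-128800, the overlap was only 4 bp, 0.332% of its width.

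The most remote bare region was chr9:40791417-40792228 (812 bp), 1033692 bp from the nearest H3K27ac region and 1161760 bp from MYC of set D. The 4 that followed formed 2 pairs on chromosome 7. The pair chr7:119912757-119913354 and chr7:119913591-119913770 was 237 bp apart and at least 583188 bp from MYC of set D. The pair chr7:82072807-82073141 and chr7:82073321-82073500 was 180 bp apart and at least 539368 bp from H3K27ac. The widths of these 4 were 180, 180, 335 and 598 bp.

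Bare regions seldom formed longer series. Joined across gaps of up to 10 kb they gave 1871 runs, of which 1620 were 1 region, 216 were 2, and 35 were 3 or more. Runs were made of bare regions alone, so these counts are not shown to be particular to this class. The longest was chrX:153657587-153672910 (15324 bp), with 3 bare regions and, between them, 1 other H3K4me3 region, 2 H3K27ac regions and 1 MYC peak of set D. The next was chrX:40004096-40018181 (14086 bp), with bare regions of 552 to 2007 bp, 3 H3K27ac regions and 2 H3K4me1 regions. The third, chr14:50085349-50098681 (13333 bp), held 3 bare regions of 202 to 228 bp and, between them, 1 other H3K4me3 region, 1 H3K27ac region, 1 MYCN peak and 1 MYC peak of each list. The fourth, chr3:141744078-141757208 (13131 bp), held 4 bare regions of 220 to 3011 bp, 6949 bp in all, and no peak of any other list. The fifth, chr5:87962191-87974257 (12067 bp), held 3 bare regions of 186 to 424 bp, 2 other H3K4me3 regions, 2 H3K27ac regions and 1 MYC peak of set D. The run with the most bare regions, picked out after its value was seen, was chr14:77492233-77500731 (8499 bp), with 5 that covered 3608 bp and no peak of the other lists.

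The share of H3K4me3 regions that were bare varied over chromosomes. It was highest on chromosome 13, with 61 of 252 (24.2%, 19.1 to 30.0%), chromosome 18, with 44 of 202 (21.8%, 16.3 to 28.1%), and chromosome 14, with 89 of 444 (20.0%, 16.4 to 24.1%). It was lowest on chromosome 19, with 117 of 1033 (11.3%, 9.46 to 13.4%), and chromosome 20, with 45 of 359 (12.5%, 9.29 to 16.4%). Chromosome 19 is known for its gene density and chromosomes 13 and 18 for few genes, but a link of these shares to gene density was not tested. H3K27ac was missing from 36.4%, 44.8% and 39.6% of H3K4me3 regions on chromosomes 19, 13 and 18, against 33.8% of all. The bare regions of chromosome 19 were the widest of any chromosome, with a median of 577 bp, against 377 bp on chromosome 13 and 258 bp on chromosome 21. On the X chromosome, 89 of 484 (18.4%, 15.0 to 22.1%) were bare, with a median width of 552 bp and the lowest share with an H3K4me3 neighbour (40.4%).

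H3K4me1 beside bare regions also differed between chromosomes. It lay within 2 kb of 50 of 117 (42.7%, 33.6 to 52.2%) on chromosome 19, 53 of 131 (40.5%, 32.0 to 49.4%) on chromosome 17 and 10 of 103 (9.71%, 4.75 to 17.1%) on chromosome 5. The H3K4me1 share of all H3K4me3 regions on these chromosomes was 43.9%, 45.7% and 19.7%. On 16 of 23 chromosomes the share was lower in bare regions than in all H3K4me3 regions of the chromosome, and it was higher on the others, including chromosomes 12, 13 and X.

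**Figure D5:**
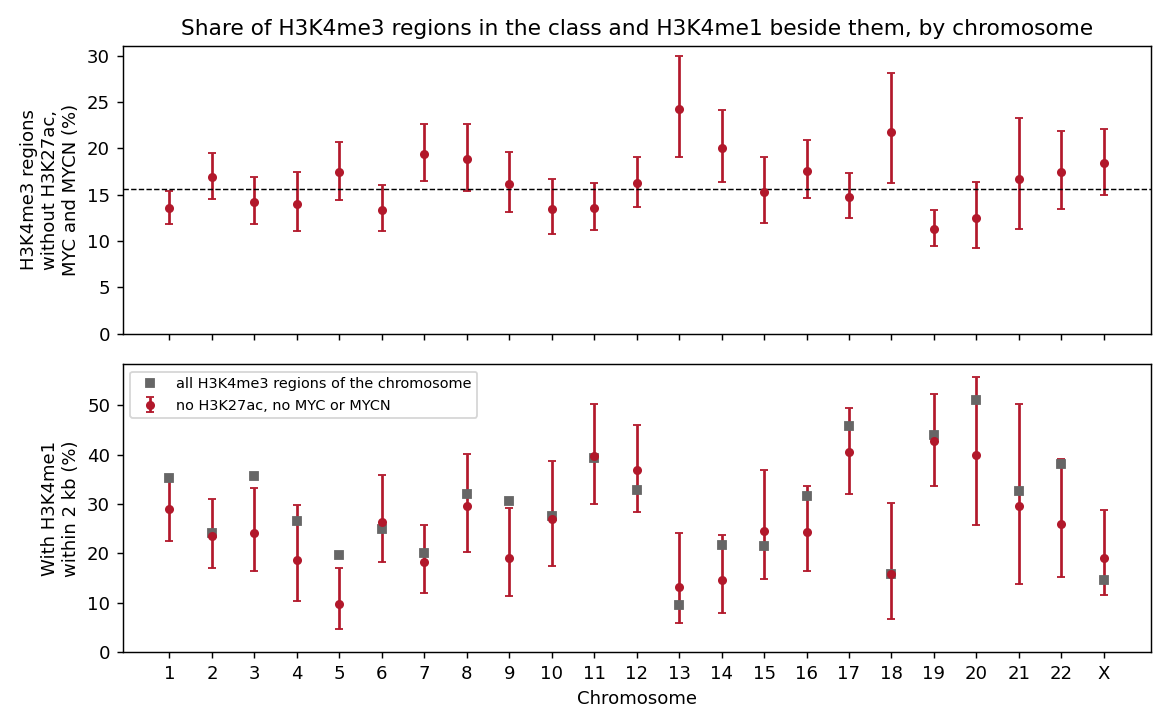
By chromosome, the share (%) of H3K4me3 regions that are bare (top, dashed line at 15.6% for all) and the share (%) of bare regions with H3K4me1 within 2 kb (bottom, with all H3K4me3 regions of the chromosome as squares), with exact 95% intervals. Chromosome 13 is highest at the top (24.2%), and chromosomes 19 and 5 are the extremes at the bottom (42.7% and 9.71%).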

How the data were processed

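CUT&RUN was done with paired reads, per the labels' protocols. The files hold peak positions in bases as deposited by the authors, with no score, p or read count. The build, hg19, is the one that the submitters' processing notes name. H3K4me3 peaks came from MACS2, the set C list of MYC from SEACR (stringent, paired), the set D list from MACS2 run without pairing, and MYCN from cutruntools output, per the file headers. The H3K27ac and H3K4me1 lists have no header. The aligner is not given in the sources used here, nor is any tool version. Different callers split and trim peaks differently, so widths were compared within the H3K4me3 list.

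Regions on chromosomes 1 to 22 and X were kept. An overlap is at least 1 bp, and distance runs from edge to edge, with the adjoining base as 1. Shares weighted to the widths of the bare regions average the shares of 6 width classes. Shares carry 95% Clopper-Pearson intervals. Planted overlaps and distances were recovered in 1500 of 1500 cases, and distances to 5 lists equalled those of bedtools 2.31.1 for all 13852 regions. Scripts ran in Python 3.11.15 with scipy 1.17.1, numpy 2.4.6 and, for plots, matplotlib 3.10.9.

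The bare regions, gene lists and comparisons were chosen with earlier results of these data known. Named regions are the 10 widest, the 10 with the widest overlapping H3K4me1, the 5 farthest from H3K27ac, MYC and MYCN, and the 5 longest runs joined within 10 kb. Comparisons with gene starts, gene lists and sequence content were not run, as they need hg19 references not used here.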

Additional observations from a re-analysis of the deposited data

How the results depend on the processing

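The number of bare regions depends strongly on the rule. It was 2164 by overlap, 1418 and 1052 with H3K27ac, MYC and MYCN kept out to 1 and 2 kb, 4689 by the centre of the H3K4me3 region, and 4247 against only the wider peaks of those lists. It was 3367 with MYC of set C alone, 215 for H3K4me3 regions of median width or more, 1155 for regions joined within 1 kb and 914 for those with no H3K4me3 neighbour. MYC of set D alone and leaving out H3K4me3 regions of 200 bp or less moved it by under 1.5 times.

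The share overlapping H3K4me1 was 7.35%. It was 9.60% by centres in the rule, 11.2% for median width or more (12.3% of all H3K4me3 regions of such width), 9.26% for joined regions and 11.2% against wider peaks. The share was 8.97% without H3K4me3 neighbours, 3.10% with wider H3K4me1 regions (6.04% of all H3K4me3 regions) and 3.33% by the centre inside H3K4me1 (4.30% of all). Within 2 kb it was 26.3%. It was 23.3% and 20.0% with the other lists kept out to 1 and 2 kb, 34.4% for median width or more (26.0% of all), 29.8% for joined regions, 30.6% without H3K4me3 neighbours and 12.8% with wider H3K4me1 regions (14.4% of all). It was 18.7% within 1 kb (25.2% of all) and 39.5% within 5 kb (41.0% of all). The other 6 settings of each share stayed inside its interval. The cause of these shifts was not tested, beyond what each setting leaves out.

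The share with another H3K4me3 region within 2 kb was 57.8%, and between 27.4% and 58.8% under the 8 settings run. The settings without regions of 200 bp or less and without H3K4me3 neighbours were chosen after the data were seen. The comparison with gene starts was not run. No paired analysis was possible because the results come from no test over samples, each histone mark has 1 list, and the replicate numbers of MYC and IgG follow accession order and pair no samples. Read depth and peak strength, which are unknown, limit what a missing peak shows.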
